A study of Mus musculus with 4 samples.

Results

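The collagen genes of mouse lung were described here as a family: every gene of the expression table whose whole symbol reads Col, a number, the letter a and a number. This rule found 44 of the 21931 genes in the table. They were grouped as 11 fibrillar collagens, 9 basement membrane collagens and 24 others, the last holding 9 fibril-associated, 6 type VI, 4 transmembrane and 3 short-chain network collagens and 2 remaining genes. The members lie on 15 chromosomes and are the matched genes only, so collagen genes with another form of name were not counted.

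Collagens are secreted proteins whose chains wind around each other in a helix, and much of connective tissue is built from them. In lung, the fibrillar types I, III and V form the tension-bearing fibres of airways, vessels and septa, and are made mainly by fibroblasts and smooth muscle cells. Type IV forms the sheet-like network of basement membranes under epithelium and endothelium, including the thin barrier across which gas is exchanged. Type VI forms beaded filaments between these sheets and the fibres.

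The study measured whole-lung RNA in C57BL6 mice at 2 months of age, with no added treatment. There was 1 wild-type library, 1 library of the genotype given only as Hez, and 2 libraries of Dnah9 knockout mice. Dnah9 encodes a heavy chain of the outer dynein arm of motile cilia. The labels do not spell out Hez, and they do not give the allele, the deleted part of the gene, the sex, the litters or the extraction batches. They also do not say whether each library came from a separate animal, so every p-value here measures the spread between these libraries only.

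The libraries held 15860478 to 16553480 assigned reads, and 16445 to 16571 genes had a read in each. Dnah9 had 917 reads in wild type, 420 in Hez, and 240 and 254 in the knockouts and was thus lowest in the libraries labelled knockout. Reads remained in the knockouts, and the deleted part is not known, so these counts do not check a full loss. Lung markers were present in all 4 libraries. The summed level of 5 alveolar type 1 markers ran from 2205 to 2434 CPM, and that of 5 endothelial markers from 2734 to 3050.4 CPM. CPM of markers and listed genes scales reads to the library's reads in tested genes, with the TMM scaling named below, and not to gene length.

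Levels between genes are given in FPKM as deposited, that is, reads divided by the library's total and by the length of the gene. By mean FPKM over the 4 libraries, 20 collagens stood at 5 or more, 8 between 1 and 5, and 16 below 1. The 28 members at 1 FPKM or more were 7 fibrillar, 9 basement membrane and 12 other collagens, and they carry the comparisons below. This cut uses the mean over all libraries, and so does not favour a member that is high in any single group. All 9 basement membrane collagens passed it, against 7 of 11 fibrillar ones.

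Collagen RNA was concentrated in few genes. Col4a1, Col4a2, Col3a1, Col6a1, Col1a1 and Col1a2 together took 71.4% of summed collagen FPKM in wild type, 70.9% in Hez, and 72.2% in both knockouts. Col4a1, the most abundant collagen by FPKM, ranked 124 among all genes. The order among these genes depends on the gene lengths behind the FPKM: with GENCODE M21 lengths of the longest coding transcript, Col3a1 (mean 237 FPKM) stood above Col4a1 (224) and Col4a2 (171). The deposited length of Col1a2, 12426 bases, is longer than the 5348 bases of its longest coding transcript, so its deposited FPKM is low for that transcript. Lengths are shared by all libraries and do not touch the differences between them.

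**Figure D1:**
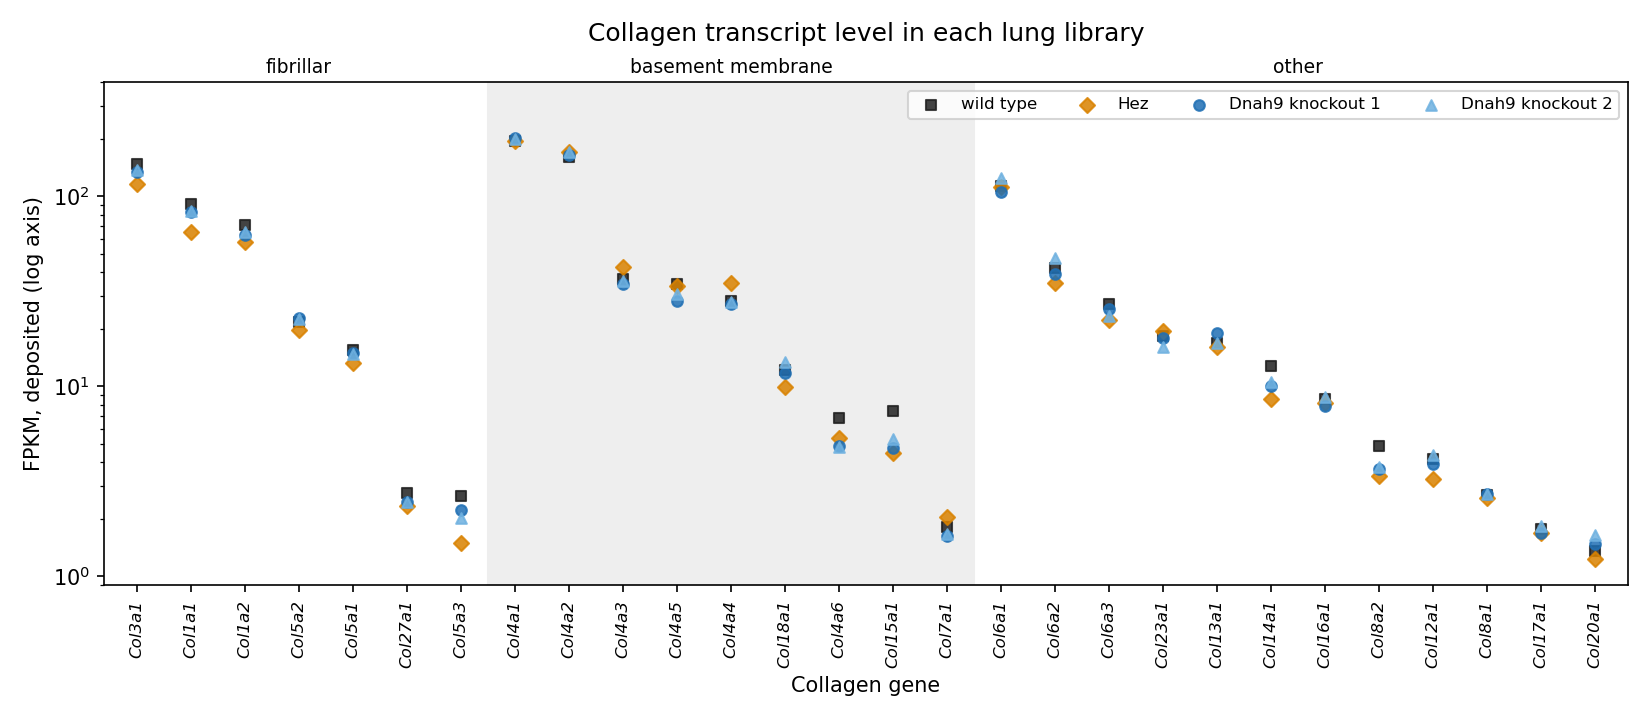
FPKM of the 28 collagens at a mean of 1 FPKM or more, on a log axis, with 1 point for each library and the genes ordered by mean within each class. The points of most genes lie close together compared with the range between genes, from Col20a1 near 1 to Col4a1 near 200 FPKM.

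By class, fibrillar collagens made up 32.5% of collagen FPKM in wild type, 27.3% in Hez, and 30.9% and 30.3% in the knockouts. Basement membrane collagens made up 44.2%, 49.4%, 46.1% and 45.3% in the same order. The other collagens lay between 23.0% and 24.4%. Hez therefore had the smallest fibrillar and the largest basement membrane share, and the knockouts lay between Hez and wild type in both. All collagens together took 0.860% of reads in wild type, 0.788% in Hez, and 0.816% and 0.845% in the knockouts.

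Some members sit next to each other in the genome, and the starts of the genes that the results turn on are shown for that reason. All 6 type IV genes form head-to-head pairs on the table's coordinates (GRCm39). Col4a1 (chromosome 8, 11248423 to 11362826, minus strand) and Col4a2 (11362805 to 11499287, plus strand) overlap by 22 bases. Col4a4 (chromosome 1, 82426144 to 82564570, minus strand) and Col4a3 (82564642 to 82699780, plus strand) lie 71 bases apart. Col4a6 (chromosome X, 139948399 to 140257072, minus strand) and Col4a5 (140258381 to 140472230, plus strand) lie 1308 bases apart. Such paired starts are a known feature of type IV collagen genes.

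The following sequences are from RefSeq (GRCm38.p6), each read 5′ to 3′ on the strand of the named gene and ending at the base before its start. The Col4a4 line is the whole gap shared with Col4a3, chr1:82586850-82586920 on the minus strand. Col4a6 is chrX:141474077-141474196 on the minus strand, Col15a1 is chr4:47207892-47208011 on the plus strand, and Col3a1 is chr1:45311418-45311537 on the plus strand. Capitals mark matches on either strand to TATA, CCAAT or GGGCGG, the last being the GC box letters. Col4a4 and Col4a3 both had their highest level in Hez, Col4a6 and Col15a1 had the smallest p-values against wild type, and Col3a1 stands for the abundant fibrillar genes.
Col4a4: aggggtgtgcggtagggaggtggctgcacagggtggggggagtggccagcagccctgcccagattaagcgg
Col4a6: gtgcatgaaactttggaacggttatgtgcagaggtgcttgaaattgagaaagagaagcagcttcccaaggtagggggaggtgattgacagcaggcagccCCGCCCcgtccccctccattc
Col15a1: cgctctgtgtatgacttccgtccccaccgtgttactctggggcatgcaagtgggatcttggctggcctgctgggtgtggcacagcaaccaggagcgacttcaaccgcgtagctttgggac
Col3a1: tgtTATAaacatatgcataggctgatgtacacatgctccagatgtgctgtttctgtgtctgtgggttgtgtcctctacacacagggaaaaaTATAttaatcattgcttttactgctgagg
The Col4a4 to Col4a3 gap held none of the 3 motifs and had a GC content of 69.0%. Col4a6 held 1 GC box, starting 21 bases before the gene's start, and Col15a1 held none of the 3. Col3a1 held TATA at 117 and 29 bases before its start, with a GC content of 40.0%. Of 32851 promoters in the RefSeq table, 17.7% hold TATA, 21.3% CCAAT and 26.5% GGGCGG in the same 120 bases, and 12%, 13.3% and 20.7% in the last 71. A match describes letters only and is not a site of binding.

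No collagen passed the threshold (adjusted p under 0.05, edgeR quasi-likelihood test, two-sided) between knockout and wild type, the comparison that the study's design names. Of 44 collagens, 37 had enough reads to be tested and 0 passed, where 8 of 15055 genes passed over the whole table (0.0531%). At an unadjusted p under 0.05, 3 of the 28 abundant members stood out, all lower in the knockouts (Col4a6, Col15a1 and Col14a1), beside 5.18% of all genes and 3.37% that were lower. DESeq2 and limma also called 0 collagens. The log2 fold changes of the 28 members ran from -0.55 to 0.21, and every 95% interval stayed within 1 log2 unit of 0. The spread in this test rests on the 2 knockout libraries, and the lone wild-type and Hez libraries were assumed to vary as they do.

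Against Hez, 0 of 37 collagens passed, where 1 of 15055 genes did (0.00664%). At an unadjusted p under 0.05 there were 9 of the 28 abundant members, 7 higher and 2 lower in the knockouts, beside 4.61% of all genes (2.5% higher and 2.11% lower). That count depended on the tool. With the Wald test of DESeq2 it was 2 of 28, beside 1.09% of all genes, and with limma on log2(FPKM + 0.5) it was 4 of 28, beside 4.42%. With wild type and Hez together as reference, 0 of 36 collagens passed, where 2 of 14674 genes did (0.0136%). There the unadjusted count was 2 of 28, both lower, beside 5.05% of all genes and 2.75% that were lower. It became 9 of 28 without the wild-type library, beside 4.67% of all genes, 4 without the first knockout, beside 7.65%, and 3 without Hez or without the second knockout, beside 5.24% and 5.94%. The comparisons share the knockout libraries, so their values are not independent of each other.

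**Figure D2:**
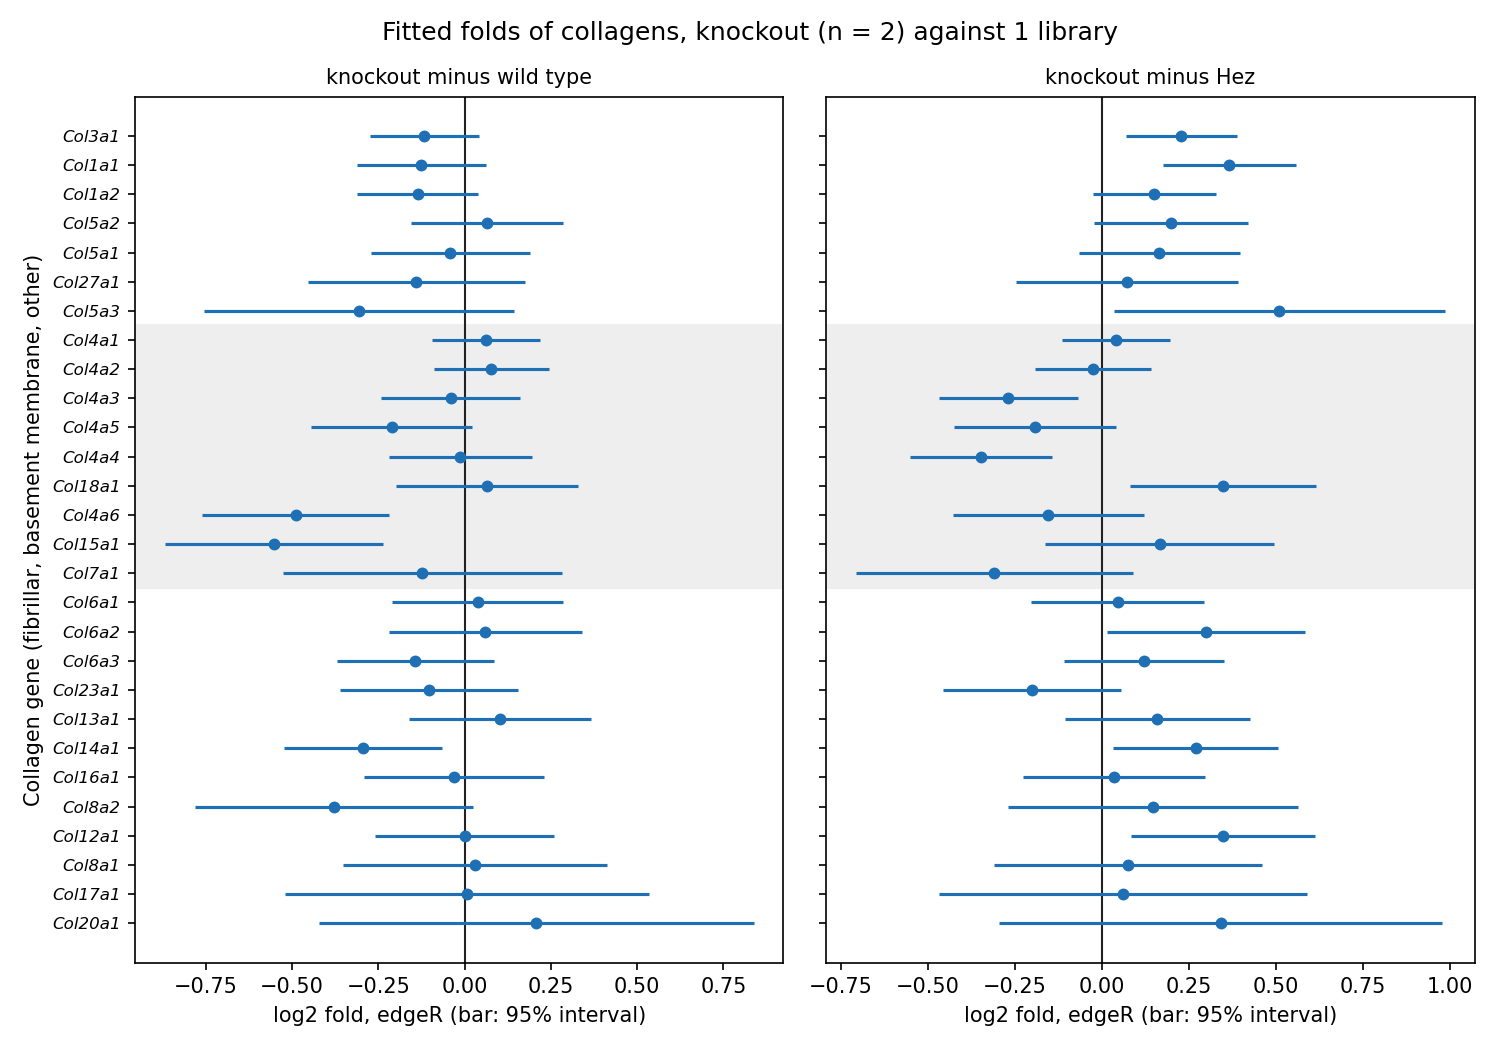
Log2 fold change of each of the 28 collagens in the knockouts against wild type and against Hez, with 95% intervals from the edgeR fit. Col4a6, Col15a1 and Col14a1 are the 3 whose interval against wild type lies below 0, and against Hez the intervals of 7 members lie above 0 and those of Col4a3 and Col4a4 below.

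Among fibrillar collagens, which build the tension-bearing fibres, Hez was the lowest of the 4 libraries for 7 of 7 abundant members and wild type the highest for 6 of 7. Over all genes at 1 FPKM or more, Hez was the lowest for 25.6% and wild type the highest for 25.6%. The fibrillar order alone puts both knockouts below wild type for 6 of the 7, where 33.4% of all tested genes were. It also puts both above Hez for 7 of the 7, where 34.2% were, so neither count is a separate result. The median log2 difference of these 7 was -0.13 against wild type and 0.20 against Hez, beside medians of 0.00 and 0.01 over all tested genes.

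Col1a1 (chromosome 11, 94827050 to 94843868), which encodes the major chain of type I collagen, stood at 91.8 FPKM in wild type, 64.8 in Hez, and 82.9 and 84.1 in the knockouts. The knockouts lay close together, below wild type and above Hez. The log2 difference was -0.13 (SE 0.081, adjusted p = 0.996) against wild type and 0.37 (SE 0.0827, adjusted p = 0.65) against Hez. Col1a2 (chromosome 6, 4504814 to 4541544), the partner chain, had 70.5, 57.3, 62.5 and 64.7 FPKM in the same order of libraries. Its place between the references was the same, with log2 differences of -0.14 and 0.15.

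Col3a1 (chromosome 1, 45350698 to 45388866), the single chain of type III, a collagen of distensible tissues, had 149 FPKM in wild type, 116 in Hez, and 134 and 138 in the knockouts. It again lay between the references, at a log2 difference of -0.12 (SE 0.0686) against wild type and 0.23 (SE 0.0696, adjusted p = 0.869) against Hez. Col5a1 and Col5a2 encode type V chains, which set fibril diameter. Col5a1 stood at 15.5, 13.3, 14.9 and 14.9 FPKM. Col5a2, the tail-to-tail neighbour of Col3a1 at a gap of 24614 bases, stood at 21.9, 19.8, 22.8 and 22.6 FPKM. For Col5a2 the knockouts lay above wild type as well, the exception among the 7.

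Col5a3, a minor type V chain, had the largest log2 difference between the references among the 7 abundant fibrillar genes, with 2.66 FPKM in wild type, 1.50 in Hez, and 2.23 and 2.04 in the knockouts. Its log2 difference was 0.51 (SE 0.207, adjusted p = 0.9997) against Hez. Col27a1, a fibrillar collagen of cartilage, had 2.74, 2.34, 2.45 and 2.47 FPKM. The other 4 fibrillar genes were low: Col11a2 had 44 to 70 reads per library, Col24a1 8 to 20, and Col2a1 and Col11a1 at most 5.

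**Figure D3:**
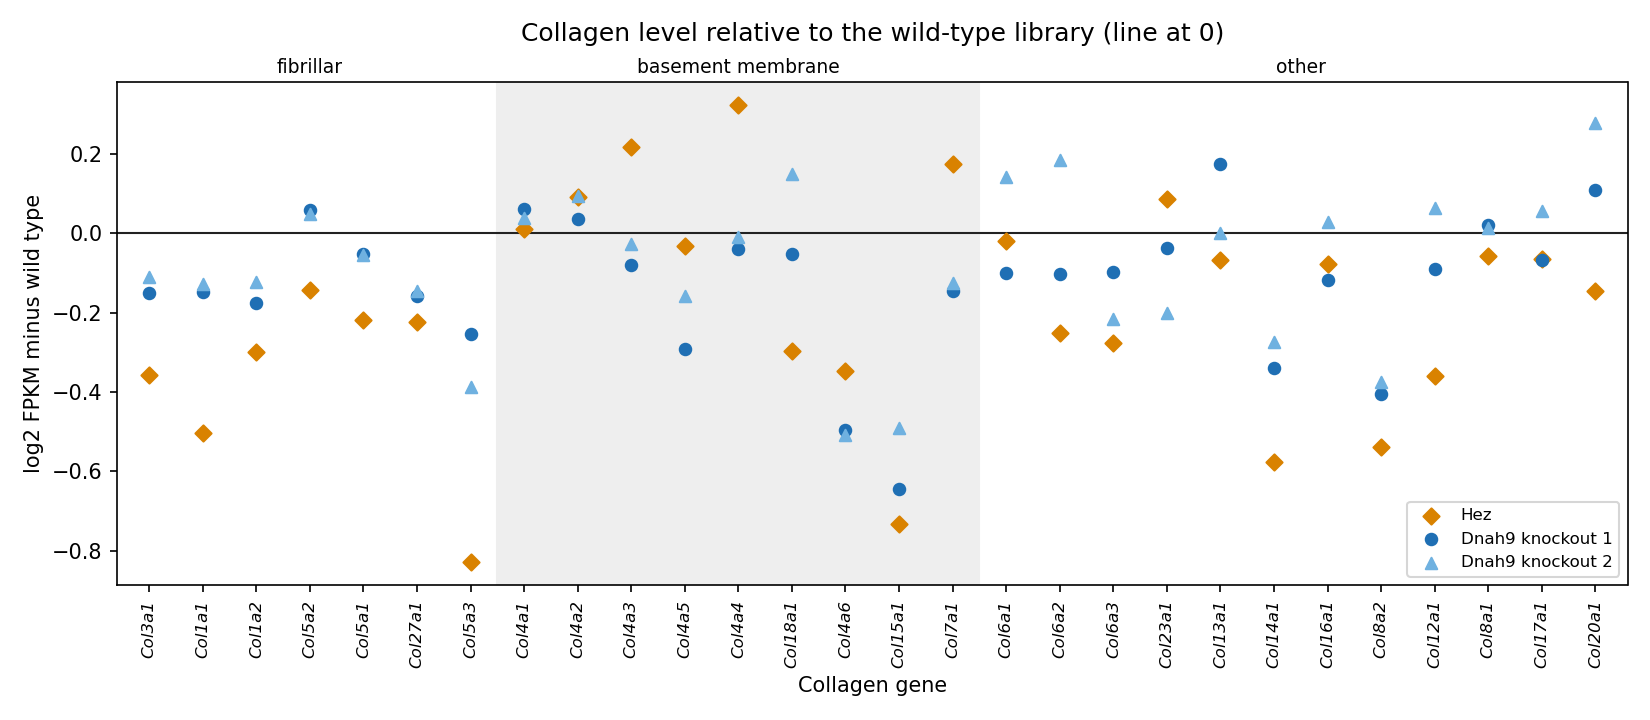
Log2 FPKM of each of the 28 collagens in Hez and in the 2 knockouts minus that in wild type, which is the line at 0. For all 7 fibrillar genes the Hez point is the lowest and lies below 0, while for Col4a3 and Col4a4 it is the highest and lies above 0.

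The 3 pairs of basement membrane type IV chains did not share a pattern. Col4a1 and Col4a2, whose chains form the network found in nearly all basement membranes, were nearly level over the libraries. Col4a1 stood at 195 FPKM in wild type, 196 in Hez, and 203 and 200.4 in the knockouts. Col4a2 stood at 161, 171, 165 and 171 FPKM. The intervals of their differences from wild type, 0.06 (SE 0.0678) and 0.08 (SE 0.0724) on the log2 scale, include 0, which does not show that they are equal.

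Col4a3 and Col4a4, whose chains join that of Col4a5 in the alveolar and glomerular basement membranes, were highest in Hez. Col4a3 had 36.6 FPKM in wild type, 42.5 in Hez, and 34.6 and 35.9 in the knockouts. Col4a4 had 28.0, 35.1, 27.3 and 27.8 FPKM. For both genes the knockouts lay just under wild type, with log2 differences of -0.04 and -0.01. Against Hez the differences were -0.27 (SE 0.0867, adjusted p = 0.892) for Col4a3 and -0.35 (SE 0.0885, adjusted p = 0.717) for Col4a4. The 71 bases between their starts are those printed above.

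The X-linked pair was lower in both knockouts than in either reference. Col4a5 stood at 34.4 FPKM in wild type, 33.7 in Hez, and 28.1 and 30.8 in the knockouts. Col4a6, a chain of smooth muscle and airway basement membranes, stood at 6.84, 5.37, 4.85 and 4.81 FPKM. Against wild type and Hez together, the log2 difference was -0.21 (SE 0.0753, adjusted p = 0.94) for Col4a5 and -0.33 (SE 0.12, adjusted p = 0.94) for Col4a6, by edgeR. Against wild type alone, Col4a6 was at -0.49 (95% interval -0.76 to -0.22, adjusted p = 0.445), and against Hez alone at -0.15. Its value against both references became -0.16 without wild type and -0.49 without Hez, so wild type stood apart from the other 3 libraries more than the knockouts did from Hez. Of the 28 members, 6 had both knockouts below both references, where 16.8% of all tested genes did.

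Col15a1 and Col18a1 encode multiplexin collagens, which sit at the outer face of basement membranes and carry endostatin-type ends. Col15a1 stood at 7.39 FPKM in wild type, 4.45 in Hez, and 4.73 and 5.26 in the knockouts. Wild type stood apart from the other 3 libraries, at a log2 difference of -0.55 for the knockouts (SE 0.137, adjusted p = 0.487). Against Hez the same gene was at 0.17, and so its distance from the reference depended on which was taken. Col18a1 had 12.1, 9.88, 11.7 and 13.4 FPKM, with knockouts on both sides of wild type and above Hez (log2 0.35, SE 0.116, adjusted p = 0.913). Reads of Col18a1 could include those of its opposite-strand neighbour Slc19a1, which overlaps it by 8825 bases and had 91 to 148 reads, and the sources used here do not say whether the counting used strand. Col7a1, the chain of anchoring fibrils, had 1.81, 2.04, 1.64 and 1.66 FPKM.

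Among the other collagens, type VI had 3 abundant chains. Col6a1 stood at 113 FPKM in wild type, 112 in Hez, and 106 and 125 in the knockouts, so the knockouts spanned both references. Col6a2 stood at 41.8, 35.1, 39.0 and 47.5 FPKM, and Col6a3 at 27.2, 22.5, 25.4 and 23.4. For Col6a1 and Col6a2 the knockout libraries differed from each other by more than the references did. The second knockout was the highest library for both, while for Col6a3 it was lower than the first.

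Col14a1, a fibril-associated collagen that binds decorin-coated fibrils, had 12.7 FPKM in wild type, 8.55 in Hez, and 10.1 and 10.5 in the knockouts. Its log2 difference was -0.29 (SE 0.0997, adjusted p = 0.781) against wild type and 0.27 (SE 0.103, adjusted p = 0.9997) against Hez, between the references like the fibrillar genes. Col12a1, the related fibril-associated chain, had 4.16, 3.24, 3.91 and 4.34 FPKM, level with wild type and above Hez (log2 0.35, SE 0.115, adjusted p = 0.904). Col16a1, another fibril-associated collagen, stayed between 7.92 and 8.76 FPKM. Col20a1 lay between 1.23 and 1.66 FPKM.

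The short-chain network collagens Col8a1 and Col8a2 form lattices under endothelium. Col8a1 stood at 2.58 to 2.72 FPKM, and Col8a2 at 4.88 FPKM in wild type, 3.36 in Hez, and 3.69 and 3.76 in the knockouts. Col8a2 was highest in wild type, with the other 3 libraries close together. The transmembrane collagens Col13a1 (16.9, 16.1, 19.0 and 16.9 FPKM) and Col23a1 (18.5, 19.6, 18.0 and 16.1 FPKM) are cell-surface proteins of epithelium and mesenchyme. For Col23a1 both knockouts lay below both references (log2 -0.16, SE 0.0868), the first only just below wild type, and the value became -0.070 without the second knockout and -0.25 without the first. For Col13a1 the knockouts reached down to wild type. Col17a1, the hemidesmosome collagen, lay between 1.70 and 1.85 FPKM.

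Of the 16 collagens below 1 FPKM, 8 had at most 10 reads in every library and none exceeded 136. Col6a5, a type VI chain, had 43, 58, 34 and 136 reads in wild type, Hez and the knockouts. The second knockout alone was high, and the log2 difference of 1.0 from wild type (SE 0.734) became -0.34 without it. Its neighbour Col6a6 had 33, 41, 16 and 13 reads, lower in both knockouts, at a log2 difference of -1.32 against both references (SE 0.422, adjusted p = 0.845 by edgeR). Col6a4, the third gene of that cluster on chromosome 9, had 30, 46, 14 and 26 reads. Col25a1, a neuronal transmembrane collagen, had 10, 19, 5 and 4 reads, and reached the filter's level in the 2 references only, so it could be tested only through the libraries where it is high. Col28a1 had 29 to 55 reads, Col9a3 12 to 26, and Col26a1, which passed the filter through a single library, 3 to 10. Apart from Col6a5 in the second knockout, these differences amount to few reads, and 7 members could not be tested at all: Col2a1, Col9a1, Col9a2, Col10a1, Col11a1, Col19a1 and Col22a1.

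Hez and wild type are 1 library each, so their difference has no replicate check. Of the 28 abundant members, 22 were lower in Hez, where 50.4% of all tested genes were. The median log2 difference of the 28 was -0.17, beside -0.00 over all tested genes. A fold of 1.25 was passed by 8 members lower in Hez and by 1 higher, where 13.9% of all tested genes were lower and 7.43% higher by that much. Col1a1 differed by -0.49 on the log2 scale, from 91.8 FPKM (exact Poisson interval 90.0 to 93.7) to 64.8 (63.3 to 66.3). Col14a1 differed by -0.56, Col5a3 by -0.81 and Col15a1 by -0.72. Col4a4, the member higher in Hez, differed by 0.33, from 28.0 FPKM (27.2 to 28.8) to 35.1 (34.2 to 36.0). These intervals cover counting error only. For all 7 abundant fibrillar genes these references lay further apart than the knockout libraries did. In 6 of them wild type was highest and Hez lowest, so the wider gap follows from that order and is not a separate result.

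Cell type markers also differed between the libraries. Of 8 smooth muscle and pericyte markers, all were measured with none at 0, and their summed level was 1971 CPM in wild type, 1244 in Hez, and 1596 and 1409 in the knockouts. The sum was highest in wild type, lowest in Hez and between them in the knockouts, the order found for most abundant fibrillar genes. Not every marker followed it. Of the 8, 7 had both knockouts below wild type, beside 33.4% of all tested genes. Both knockouts lay above Hez for 5 of the 8, beside 34.2%. Notch3 was higher in Hez than in wild type (log2 difference 0.09), and Tagln had only 6 to 26 reads. Of 8 fibroblast markers none was at 0, and their sums were 4238, 5045, 4583 and 4313 CPM, with Hez the highest. Most of that difference was Inmt (1379, 1854, 1712 and 1462 CPM). With Inmt, 5 of the 8 were higher in Hez than in wild type. The others were Tcf21, Npnt, Limch1 and Pdgfra, at log2 differences of 0.24, 0.23, 0.20 and 0.15. Pi16, Dpt and Fgf10 were lower in Hez, at log2 differences of -0.90, -0.31 and -0.05. The 5 mesothelial markers, none at 0, summed to 142, 201, 145 and 88.6 CPM. For 8 chondrocyte markers the sums were 70.6, 49.1, 51.9 and 51.6 CPM, mostly Chad, while Acan and Matn1, which define cartilage, had at most 2 reads.

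Markers of airway, alveolar and other cells differed as well. The 6 club and ciliated markers, none at 0, summed to 19239, 15325, 16614 and 13702 CPM. All 6 were lower in the knockouts than in wild type at an unadjusted p under 0.05, beside 3.37% of all tested genes. Of these Scgb3a2, a secretoglobin of club cells, fell past the adjusted threshold, as did 8 of all 15055 tested genes in either direction. It had 650 CPM in wild type, 319 in Hez, and 373 and 331 in the knockouts (log2 -0.88, adjusted p = 0.0365 by edgeR). Against Hez, 5 of the 6 markers were on the higher side, at a median of 0.09, beside 7898 of all 15055 tested genes. Scgb3a2 was there at 0.15 (SE 0.101), and Cyp2f2 alone was on the lower side, at -0.30 (SE 0.0949). The 5 adipocyte markers summed to 79.6, 70.0, 54.0 and 42.0 CPM, with 3 lower than in wild type at an unadjusted p under 0.05. The 5 skeletal muscle markers summed to 30.7, 21.7, 16.6 and 20.8 CPM, with 1 lower at that level. The share of all tested genes beside both counts is the same 3.37%. The 5 alveolar type 2 markers summed to 23308, 23956, 27195 and 25924 CPM. All 5 were higher in the knockouts than in wild type, 4 of them at an unadjusted p under 0.05, beside 273 of all 15055 tested genes. The part of all these markers in the collagen results was not tested, and in bulk tissue fewer cells of a type and less RNA per cell cannot be told apart.

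Chains that assemble into the same molecule were compared per length within each library. The ratio of Col1a1 to Col1a2 was 1.30 in wild type (exact binomial interval 1.27 to 1.34), 1.13 in Hez (1.10 to 1.16), and 1.33 (1.29 to 1.36) and 1.30 (1.26 to 1.33) in the knockouts. Hez stood apart from the other 3 libraries. The ratio's level depends on the lengths used, being 0.538 to 0.632 with GENCODE lengths, while its order over the libraries cannot. Between chains of different molecules, types III and I, the ratio of Col3a1 to Col1a1 was 1.62, 1.79, 1.62 and 1.64, with Hez again apart. Both ratios contain Col1a1, so they are not separate results.

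Among type IV chains, Col4a1 to Col4a2 lay between 1.15 and 1.24, and Col4a3 to Col4a4 between 1.21 and 1.30. Col4a5 to Col4a3 was 0.941 in wild type, 0.792 in Hez, and 0.811 and 0.859 in the knockouts, highest in wild type. Col4a6 to Col4a5 was 0.199 in wild type (0.184 to 0.214), 0.160 in Hez (0.147 to 0.173), and 0.172 and 0.156 in the knockouts. Col6a1 to Col6a2 was 2.71, 3.18, 2.71 and 2.63, and Col5a3 to Col5a2 was 0.122, 0.0757, 0.0979 and 0.0901. With 2 libraries against 1 or 2, no exact permutation test could reach 0.05, so the ratios are given without one.

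**Figure D4:**
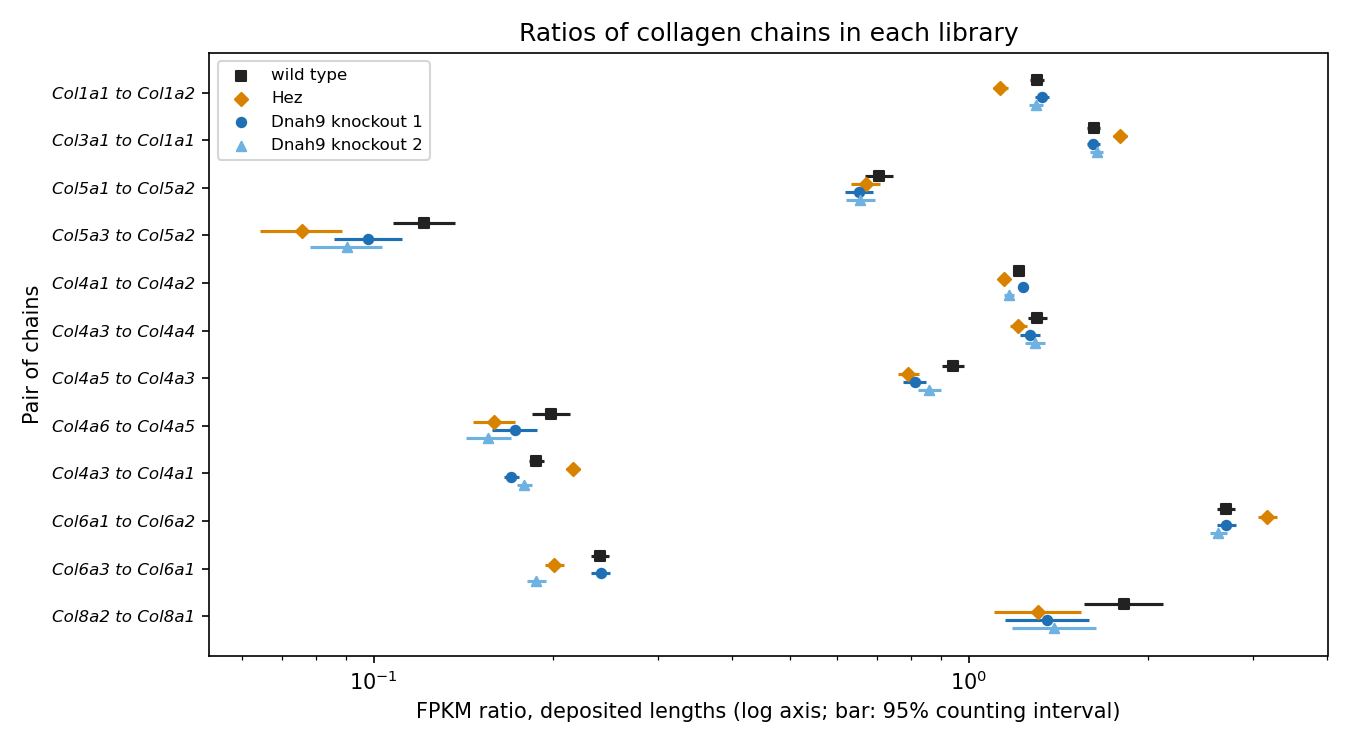
Ratio of FPKM between chains of the same or neighbouring collagen types, with 1 point for each library and exact binomial 95% intervals, on a log axis. Hez has the lowest Col1a1 to Col1a2 ratio, 1.13, and the highest Col6a1 to Col6a2 ratio, 3.18.

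The genes that process, bind and turn over collagen were described from lists, with the same fits. In none of 8 such lists did a gene pass the adjusted threshold in any of the 3 comparisons. Over all 15055 tested genes, 7690 were on the higher side of wild type and 7898 on the higher side of Hez. Of 22 tested genes for hydroxylation, folding and export, 16 were on the higher and 6 on the lower side of wild type, at a median log2 difference of 0.05. Plod3, a lysyl hydroxylase, was at 0.33 (SE 0.126), Serpinh1, the collagen chaperone, at 0.17 (SE 0.0847), and Fkbp14, a prolyl isomerase of the endoplasmic reticulum, on the lower side at -0.31 (SE 0.15). Of 13 genes for procollagen trimming and cross-linking, 5 were on the higher side, at a median of -0.02. Loxl1, a lysyl oxidase that cross-links elastic fibres, was at 0.36 (SE 0.0991, adjusted p = 0.585), and Tll1, which trims procollagen ends, at 0.57 (SE 0.302). On the lower side, the procollagen N-proteinase Adamts2 was at -0.13 and the lysyl oxidase Loxl4 at -0.44 (SE 0.331).

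Of 14 fibril-binding proteoglycans and partners, 12 were on the lower side of wild type, at a median of -0.14, where 48.9% of all tested genes were. Dcn, which coats type I fibrils, stood at 324 CPM in wild type, 228 in Hez, and 248 and 240.1 in the knockouts. Lum, a related keratan sulphate proteoglycan, stood at 27.6, 16.5, 16.2 and 17.8 CPM. For both genes wild type was highest and Hez lay with the knockouts. Ecm2, a matrix protein of the same list, was instead highest in Hez, at 65.3, 72.8, 54.6 and 58.3 CPM. Against Hez 7 of the 14 were on each side, at a median of -0.01. The adjusted p against wild type was 0.402 for Dcn and 0.473 for Lum.

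Of 18 laminin and other basement membrane partners, 12 were on the lower side of wild type, at a median of -0.04, where 48.9% of all tested genes were lower. Smoc1, a calcium-binding matrix protein, was at -0.89 (SE 0.323), and Nid2, a nidogen that links laminin to type IV collagen, at -0.47 (SE 0.18). Smoc1 had 12.3 CPM in wild type, 7.62 in Hez, and 8.30 and 4.97 in the knockouts, which lay on both sides of Hez. Nid2 had 19.8, 18.1, 14.4 and 14.1 CPM, with the knockouts below both references. Of 15 genes of collagen degradation and its inhibitors, 9 were on the higher side, at a median of 0.07, with the collagen uptake receptor Mrc2 at 0.28 and the inhibitor Timp4 at -0.68. Mrc2 had 155 CPM in wild type, 166 in Hez, and 184 and 192 in the knockouts. Timp4 had 8.33, 4.36, 4.92 and 5.47 CPM, so its knockouts lay below wild type and above Hez. Of 10 collagen receptors 6 were on the higher side, at a median of 0.03, with the type III collagen receptor Adgrg1 at 0.22 (SE 0.101) and the integrin chain Itga1 at 0.11. Of 18 elastic fibre and fibronectin genes 10 were, also at 0.03, with the elastic fibre glycoprotein Emilin1 at 0.21 (SE 0.0991) and Ltbp4, which guides elastic fibre assembly, at 0.14.

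Of 16 profibrotic signals, 12 were on the higher side of wild type, at a median of 0.08, where 7690 of all 15055 tested genes were higher. Tgfb1, the growth factor that drives matrix production in fibroblasts, was at 0.26 (SE 0.101). Acta2, the smooth muscle actin that also marks myofibroblasts, was on the lower side at -0.33 (SE 0.0881). The smallest adjusted p of the list, by edgeR, was 0.566, for Acta2. Acta2 is counted among the smooth muscle markers as well. It had 689 CPM in wild type, 411 in Hez, and 573 and 526 in the knockouts, so against Hez it was on the higher side, at 0.42 (SE 0.0908). Against Hez, whose comparison uses the same knockout libraries, 11 of the 16 profibrotic signals were on the higher side, at a median of 0.06. Over all 15055 tested genes, 7898 were on that side. For hydroxylation, folding and export the count against Hez was 18 of 22, at 0.04, and for degradation and its inhibitors 10 of 15, at 0.16.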

How the data were processed

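Whole-lung RNA was sequenced in 4 libraries, prepared with a TruSeq RNA kit per the labels' protocols. The authors deposited read counts and FPKM values per gene in a table of 21931 genes, with coordinates and lengths per the file headers. Coordinates are on GRCm39 (per the submitters' processing notes). No header or label used here names the aligner, the counter, the annotation or the strand setting. Recomputing FPKM from reads, library total and gene length gave the deposited value in all 66024 non-zero cases (relative difference at most 1e-06).

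Groups came from the genotype labels. Counts were filtered at 10 reads or the matching CPM (0.616) in the smallest group, scaled by TMM and tested with the quasi-likelihood test of edgeR 4.0.16 (R 4.3.3), in 1 fit of 3 groups and in a second fit with wild type and Hez joined. P-values were adjusted by Benjamini-Hochberg over all tested genes, and the script was tested on simulated data. Residual degrees of freedom were 1 and 2. Hez against wild type is a log2 CPM difference with a prior count of 2. Alternatives used DESeq2 1.42.0, limma 3.58.1 on log2(FPKM + 0.5), other filters and left-out libraries. The library totals allow 3 reads, the floor, at about 0.181 to 0.189 CPM. Marker and pathway lists gave counts and sums only.

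Values per library are given for Dnah9, for collagens at a mean of 5 FPKM or more and for the 3 smallest p-values per direction and comparison. Further collagens given per library, among them those between 1 and 5 FPKM, were named after their values were seen. Of each pathway list, the genes named are among the 4 with the smallest p. The members and lists were chosen with earlier results of these data known. RefSeq held a promoter for 35 of the 44 members.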

Additional observations from a re-analysis of the deposited data

How the results depend on the processing

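In each comparison 0 collagens passed under the alternatives that gave a test, and none of the 69 fold changes of the 23 named genes changed its call. With all libraries kept, 1 to 9 of the 27 or 28 members at 1 FPKM or more had an unadjusted p under 0.05. The share of all tested genes beside these counts ran from 1.09% to 5.37%. With a single knockout library left in the fit of 3 groups no residual degrees of freedom remained, so those settings gave values without a test. Values at limma are for pseudocounts 0.5, 0.1 and 1 in that order, and those for members at 1 FPKM or more were an alternative chosen after seeing the data. The median log2 difference of all tested collagens from wild type, -0.12, became -0.11 without a filter, -0.055 at 10 CPM, -0.052, -0.053 and -0.051 with limma and -0.041 at 1 FPKM or more. From Hez, 0.074 became 0.069 with DESeq2 scaling, 0.069 with its Wald test, 0.10 without a filter, 0.12 at 10 CPM, 0.12, 0.13 and 0.11 with limma and 0.14 at 1 FPKM or more. From both references, -0.012 became 0.019 at 10 CPM, 0.020, 0.022 and 0.018 with limma and 0.026 at 1 FPKM or more, so this median changed sign. For fibrillar genes, 0.17 from Hez became 0.20 at 10 CPM, 0.19, 0.20 and 0.19 with limma and 0.20 at 1 FPKM or more, and 0.042 from both references became 0.053 and 0.055 with limma at 0.5 and 0.1. For basement membrane genes, -0.15 from Hez became -0.16 with DESeq2 scaling, -0.16 with its Wald test, and -0.14 and -0.13 with limma at 0.5 and 1. For other collagens, 0.076 from Hez became 0.14 without a filter, 0.12 at 10 CPM, 0.12, 0.13 and 0.11 with limma and 0.14 at 1 FPKM or more. Libraries were also left out in turn, except a lone reference, which cannot be taken out of its own comparison. Medians from wild type then ran from -0.13 to -0.12 over all and -0.14 to -0.12 for fibrillar genes, with the wild-type library always kept. From Hez they ran from 0.069 to 0.074 over all, 0.16 to 0.17 for fibrillar, -0.16 to -0.14 for basement membrane and 0.072 to 0.095 for other genes. From both references they ran from -0.11 to 0.071 over all, -0.14 to 0.16 for fibrillar (lowest without Hez and highest without wild type), -0.20 to -0.042 for basement membrane and -0.067 to 0.095 for other genes. Of 689 alternative values of single genes 35 changed sign. Apart from left-out libraries these were Col12a1 against wild type (-0.00091 with DESeq2 scaling, -0.00086 with its Wald test, -0.013 at 10 CPM, and -0.012, -0.013, -0.011 with limma) and, against both references, Col16a1 (0.0038 without a filter) and Col1a2 (0.0021 without a filter, and 0.00055, 0.00060, 0.00049 with limma). With libraries left out, log2 differences from wild type ran from -0.071 to 0.068 for Col12a1, -0.098 to 0.034 for Col16a1, -0.032 to 0.15 for Col18a1, -0.081 to 0.15 for Col6a1, -0.083 to 0.19 for Col6a2 and -0.34 to 1.69 for Col6a5. From Hez they ran from -0.032 to 0.095 for Col16a1, -0.071 to 0.15 for Col6a1 and -0.75 to 1.28 for Col6a5. From both references they ran from -0.0017 to 0.35 for Col12a1, -0.30 to 0.27 for Col14a1, -0.56 to 0.16 for Col15a1, -0.067 to 0.062 for Col16a1, -0.13 to 0.36 for Col1a1, -0.14 to 0.15 for Col1a2, -0.12 to 0.23 for Col3a1, -0.028 to 0.075 for Col4a2, -0.044 to 0.16 for Col5a1, -0.078 to 0.15 for Col6a1, -0.15 to 0.12 for Col6a3 and -0.56 to 1.47 for Col6a5. The largest log2 spread of a chain ratio over the libraries, 0.68, became 0.41 with a pseudocount of 1. By reads in place of FPKM the mean fibrillar share was 36.5% (30.2% by FPKM) and that of other collagens 19.05% (23.5%). The cause of these shifts was not tested. No paired analysis was possible because the groups compared share fewer than 2 replicate numbers, and those numbers only follow the order of the samples. Depth limits the 16 collagens below 1 FPKM, of which 8 had at most 10 reads in every library.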
